A study of Mus musculus with 15 samples.

Results

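The genes described here lie on either side of Mrps5 on mouse chromosome 2, within 10 Mb of its start in the GRCm38 assembly, between 117.59 and 137.59 Mb. The start of a gene is its lowest coordinate here, whatever its strand. Mrps5 encodes a protein of the small subunit of the mitochondrial ribosome and spans chr2:127587222-127606829 on the plus strand. Of 428 annotated genes that start in this window, 191 reached 10 counts in 50% or more of the mice of any 1 group, 233 were below that minimum (89 of them without a count in any mouse), and 4 were left out by rule (Eif3j1, B2m and genes of mitochondrial ribosomal proteins). The 191 genes are called flanking genes here, out of 14128 genes that passed the same minimum in the whole series. Of them 178 are protein coding, 119 start on the side of Mrps5 with lower coordinates and 72 on the side with higher coordinates. The 168 flanking genes that passed the minimum in all 4 groups are given separately where this matters, since a gene that passed through 1 group is more likely to differ.

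RNA of quadriceps muscle was sequenced from 15 mice labelled C57BL/6. Mice homozygous for an Mrps5 knock-in that exchanges a valine for a tyrosine (V338Y) were compared with wild-type mice at 3 mo (4 wild-type and 4 V338Y mice) and at 19 mo (3 wild-type and 4 V338Y mice). The mutation sits in the germ line, so that every cell carries it, and whole muscle was used, so that fewer cells of a type and less RNA per cell cannot be told apart. The strain of the cells in which the knock-in was made and the number of backcrosses are not given in the sources used here.

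A gene that lies close to an engineered allele is inherited together with it. When an allele is made in cells of one strain and bred into another, the DNA around it keeps the sequence of the strain of origin until recombination removes it, and that stretch may carry its own variants in promoters, transcripts and gene copies. Genotype differences of genes close to Mrps5 can therefore come with the mutation or with such a stretch, and in these groups, where every V338Y mouse is homozygous for the knock-in, these cannot be told apart. The sequence changed by the mutation is shown as it stands in the reference, to place it among the genes described. The V338Y codon, 1 of 432 in the protein, lies in exon 11 of 12 of Mrps5, at chr2:127602459-127602461, and is in capitals within the surrounding coding stretch chr2:127602429-127602491 (plus strand, GRCm38).
Mrps5: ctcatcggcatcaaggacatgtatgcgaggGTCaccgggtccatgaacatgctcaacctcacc

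Total counts were 8250653 to 18968132 per mouse, and the flanking genes held 0.637 to 0.724% of them. Mrps5 itself did not pass the test. Its level was 23.7 ± 1.89 CPM (counts scaled to a common library size; SD, n = 4) in wild-type and 25.9 ± 1.24 (n = 4) in V338Y mice at 3 mo, and 17.5 ± 1.91 (n = 3) and 17.4 ± 1.68 (n = 4) at 19 mo. The log2 fold change of V338Y over wild-type was 0.12 (SE 0.0806, adjusted p = 0.665) at 3 mo and 0.01 (SE 0.118, adjusted p = 0.996) at 19 mo by edgeR's quasi-likelihood test with Benjamini-Hochberg adjustment. A change of a codon is not visible in counts per gene, so Mrps5 does not check the genotype labels. The 3 mo mice had Ddx3y, a gene of the Y chromosome, at 166 to 201 CPM and Xist, the RNA of the inactive X chromosome, at no more than 0.586 CPM, whereas the 19 mo mice had Xist at 501.6 to 626 CPM and Ddx3y at no more than 0.0813 CPM. Age and sex can therefore not be told apart, while both genotypes of 1 age matched in these genes. The 6 skeletal muscle markers looked at (Acta1, Ckm, Ttn, Mylpf, Tnnt3 and Myh4) were detected in every group and summed to 159161 to 317130 CPM per mouse.

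Over both ages, with age as a term in the fit, 13 of the 191 flanking genes passed an adjusted p of 0.05, 5 of them higher and 8 lower in V338Y mice. Among all genes tested 0.149% passed, 0.0708% higher and 0.0779% lower. These are counts of annotated genes and not of separate loci. Of the 8 lower, Jmjd7, Gm28042 and Pla2g4b overlap and share sequence, and Mfap1b shares sequence with a copy. Their sums are given below. The other calls of the genome were 8, of which Eif3j1 was left out by rule, 2 lay on chromosome 2 outside the window and 5 on other chromosomes. At an unadjusted p under 0.05 there were 62 flanking genes (32.5%), 33 higher and 29 lower, beside 9.17% of all genes (4.58% higher and 4.59% lower). Restricted to genes that passed the count minimum in all 4 groups, 8 of 168 flanking genes were called, beside 0.0957% of all such genes, and 51 had an unadjusted p under 0.05, beside 8.5%.

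At 3 mo, 6 of 180 flanking genes tested were called, 3 higher and 3 lower, beside 0.075% of all genes (0.0375% in each direction). At an unadjusted p under 0.05 there were 56 (35 higher, 21 lower), beside 9.7% of all genes (5.03% higher, 4.67% lower), and 50 of the 168 past the minimum in all 4 groups, beside 9.08%. At 19 mo, 1 of 186 was called, higher in V338Y mice, beside 0.0434% of all genes (0.0361% higher, 0.00723% lower). At an unadjusted p under 0.05 there were 41 (26 higher, 15 lower), beside 8.93% of all genes (6.17% higher, 2.75% lower), and 34 of the 168, beside 8.22%. With the mouse number as a block, the count at 19 mo was 9 in place of 1, and the calls among all genes 110 in place of 6. The labels do not give this pairing, so that the block is uncertain. The 9 were Gm14085, Pla2g4e, Plcb2, Gm28042, Gchfr, 4930402H24Rik, Atp8b4, Bloc1s6 and 1700020I14Rik, and V338Y mouse 3, with no wild-type mouse of its number, adds nothing to the fold changes of that fit. The count at 19 mo fell to 0 without mouse 2, 3 or 4 of the V338Y group and without any 1 of the 3 wild-type mice, and the count at 3 mo fell from 6 to 1 without V338Y mouse 3 and without V338Y mouse 4. The comparison over both ages uses the mice of the other two and is not independent of them. Separate litters or days of sampling are not in the labels, so that p-values measure the spread between these mice.

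**Figure D1:**
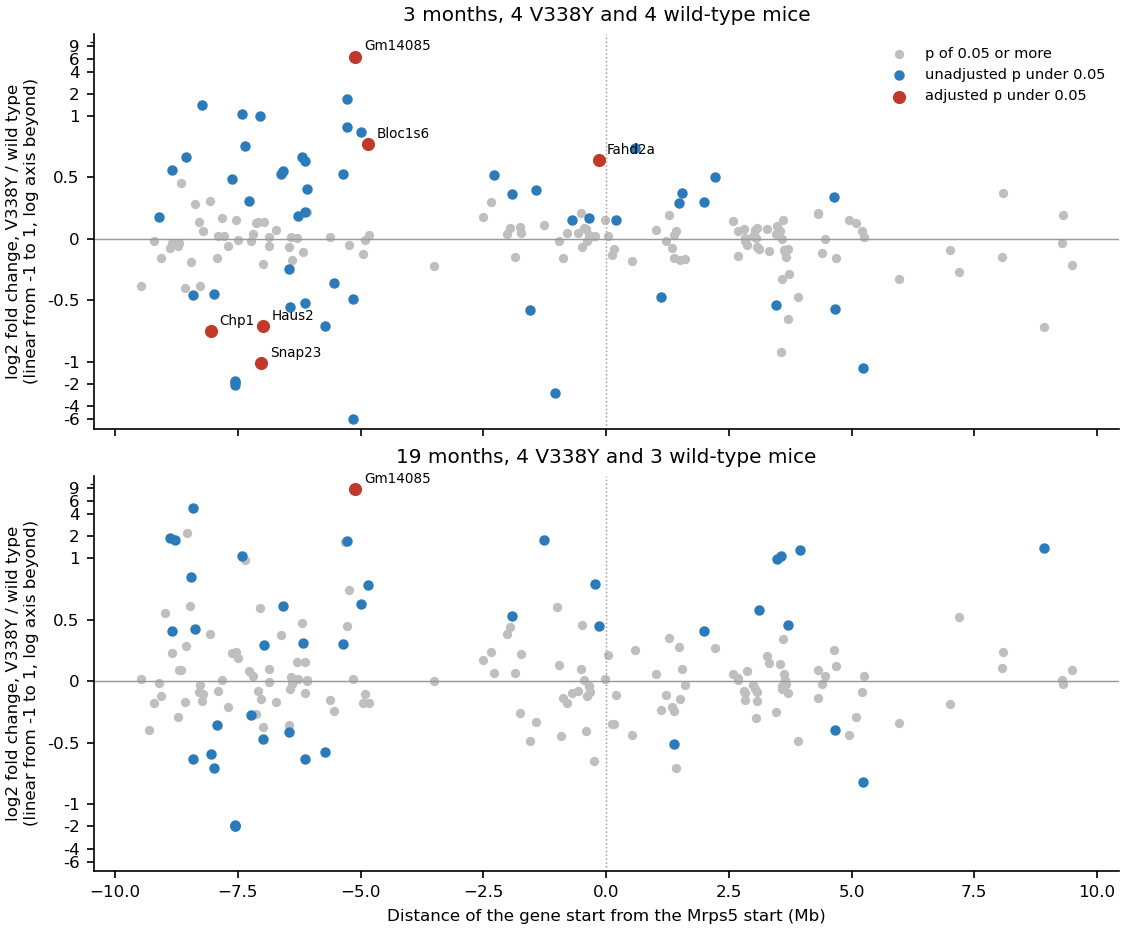
Log2 fold change of V338Y over wild-type (vertical axis, linear near 0 and logarithmic beyond) against the distance of a gene's start from that of Mrps5 in Mb (horizontal axis), for the flanking genes tested at 3 mo and at 19 mo. Each point is 1 gene, coloured by whether it passed an adjusted p of 0.05, an unadjusted p of 0.05 or neither, and the dotted line marks Mrps5. The points farthest from 0 lie on the side with lower coordinates, with Gm14085 highest at 6.35 and 8.66.

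The differences were not spread evenly over the window. Of the 13 flanking genes called over both ages, 12 started between -8.04 and -4.85 Mb from Mrps5, a stretch that held 59 flanking genes, 47 of them not called. The remaining one, Fahd2a, starts at -0.15 Mb. Among the 12, Gm14085, Gm14086, Jmjd7, Duoxa1 and Pla2g4b passed the count minimum in fewer than 4 groups. On the side with lower coordinates 49 of 119 genes (41.2%) had an unadjusted p under 0.05 over both ages, and on the other side 13 of 72 (18.1%) with no call. The same shares were 41.3 and 15.5% at 3 mo, and 26.7 and 14.3% at 19 mo. These shares cover all flanking genes and were not taken by side for the 168 that passed the minimum in all 4 groups. Of those 168, 101 lie on the lower side and 67 on the other. The contrast between the sides may therefore be smaller among them. No test was made over position, since neighbouring genes are not independent.

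In steps of 2 Mb, the share with an unadjusted p under 0.05 over both ages was 40.7% (11 of 27) at -10 to -8 Mb, 51.2% (22 of 43) at -8 to -6 Mb and 68.8% (11 of 16) at -6 to -4 Mb. It was 0 of 5 genes at -4 to -2 Mb and 17.9% (5 of 28) at -2 to 0 Mb. Beyond Mrps5 it was 27.8% (5 of 18) at 0 to 2 Mb, 12.1% (4 of 33) at 2 to 4 Mb and 30.8% (4 of 13) at 4 to 6 Mb, and none of the 8 genes from 6 to 10 Mb had such a p. The share was thus highest some Mb away from the mutated gene and not beside it. Steps with 2 to 6 genes carry little weight, and the steps also hold genes that passed the count minimum in fewer than 4 groups.

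Outside the window, 931 genes of chromosome 2 had shares of 9.01% at 3 mo, 9.14% at 19 mo and 9.02% over both ages, near those of all genes. The next 10 Mb step on the side with lower coordinates (-20 to -10 Mb) had 7.41, 3.70 and 13.8%, and the step from -30 to -20 Mb had 25.7, 20.0 and 22.5%. On the other side, the step from 10 to 20 Mb had 13.3, 22.6 and 25.8%. The 2 genes called outside the window were Cd59b (-23.5 Mb, log2 fold change -2.10, adjusted p = 0.00158), which encodes an inhibitor of complement, and Lgr4 (-17.7 Mb, -0.49, adjusted p = 0.0126), which encodes a receptor for R-spondins. Just inside the window's edges lay Thbs1 (-9.48 Mb, log2 fold change over both ages -0.20), Gpr176 (-9.31 Mb, -0.07), Slx4ip (9.30 Mb, 0.08) and Jag1 (9.49 Mb, -0.09), and just outside lay Fam98b (-10.3 Mb, -0.08), Rasgrp1 (-10.3 Mb, 0.15), Btbd3 (10.7 Mb, -0.19) and Ism1 (12.1 Mb, 0.23).

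**Figure D2:**
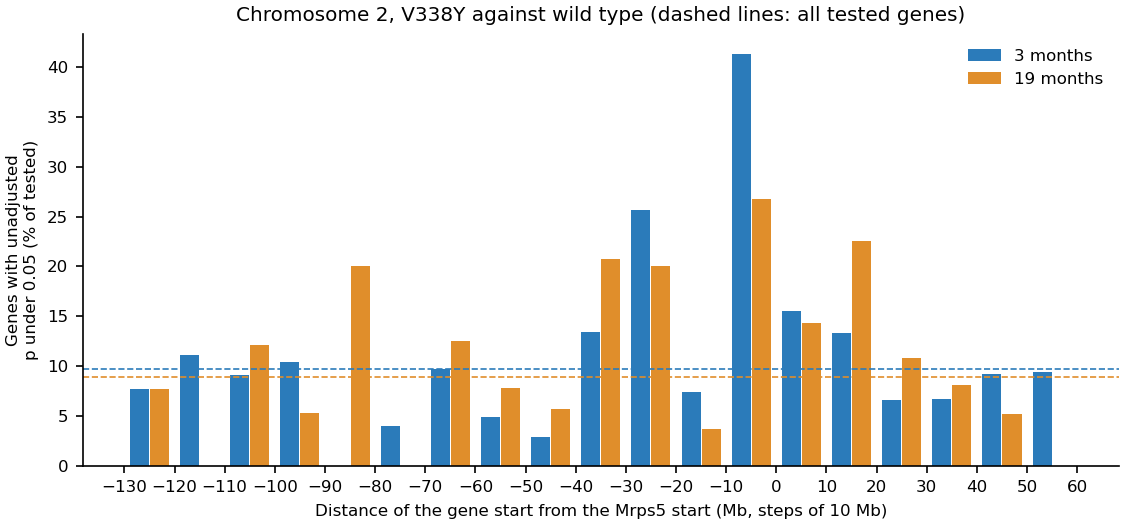
Share of the genes tested with an unadjusted p under 0.05 (vertical axis, percent) in 10 Mb steps of distance from the start of Mrps5 (horizontal axis) along chromosome 2, with a bar for 3 mo and a bar for 19 mo; dashed lines give the share among all genes at each age. The step from -10 to 0 Mb stands at 41.3 and 26.7%, above every other step of the chromosome at both ages.

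The largest log2 fold changes among flanking genes were in a family of nucleoside transporter genes at -5.16 to -5.10 Mb. Slc28a2 encodes a sodium-coupled carrier that takes up purine nucleosides, Gm14085 is a neighbouring protein-coding copy of it, and Gm14086 is a short 2-exon copy that lies within the span of Slc28a2 on the same strand. A stretch of each of the 3 transcripts, spliced across 1 intron, is shown because counts can pass between copies only where their sequences are alike. It begins at the start of the coding sequence in Slc28a2 and Gm14085 and is the whole transcript of Gm14086. All are on the plus strand of GRCm38, 173 bases each, and the 20 positions at which they are not all equal are in capitals. Slc28a2 covers chr2:122441575-122441851, Gm14085 chr2:122486660-122486935 and Gm14086 chr2:122427194-122427469.
Slc28a2: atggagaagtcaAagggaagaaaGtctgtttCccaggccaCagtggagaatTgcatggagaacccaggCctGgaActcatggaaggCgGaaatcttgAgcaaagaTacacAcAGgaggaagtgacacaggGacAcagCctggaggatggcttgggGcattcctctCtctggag
Gm14085: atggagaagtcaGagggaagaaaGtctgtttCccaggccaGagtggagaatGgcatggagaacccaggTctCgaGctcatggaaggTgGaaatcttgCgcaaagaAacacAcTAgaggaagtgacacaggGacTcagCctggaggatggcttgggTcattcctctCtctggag
Gm14086: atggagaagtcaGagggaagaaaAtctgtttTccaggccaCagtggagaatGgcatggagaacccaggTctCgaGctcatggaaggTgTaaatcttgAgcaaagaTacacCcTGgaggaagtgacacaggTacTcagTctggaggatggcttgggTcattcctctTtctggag

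Over this stretch Slc28a2 and Gm14085 differ at 13 positions, Slc28a2 and Gm14086 at 16, and Gm14085 and Gm14086 at 11. Over the 1980 bases of coding sequence, Slc28a2 and Gm14085 are 94.7% identical. Of all stretches of 1 read length in Gm14085 transcripts, 12.4% also occur in Slc28a2, and none of those in Gm14086 occur in another gene. These values hold for the reference and not for another strain's copies, which were not analysed here.

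Gm14085 was nearly silent in wild-type and present in V338Y muscle. At 3 mo it was at 0, 0, 0 and 0.0907 CPM in wild-type mice 1 to 4 and at 2.17, 2.59, 2.26 and 2.74 CPM in V338Y mice 1 to 4. At 19 mo it was at 0 CPM in all 3 wild-type mice and at 4.59, 3.21, 2.49 and 4.84 CPM in V338Y mice 2 to 5. Every V338Y mouse was above every wild-type mouse of its age. The summed counts were 115 in V338Y against 1 in wild-type mice at 3 mo, a ratio of 122 with a 95% exact interval of 21.5 to 4858 that covers counting error only. At 19 mo they were 194 against 0, at least 54.0-fold higher with a floor of 3 counts over the wild-type group. Gm14085 was called at 3 mo (adjusted p = 5.10e-04), at 19 mo (0.0292) and over both ages (8.42e-08) by edgeR's quasi-likelihood test, and it was the 1 flanking gene called at 19 mo in the fit without the block. It passed the count minimum only in the V338Y groups, in which it was high, and is a flanking gene here only through them.

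Gm14086 went the other way. Wild-type mice had 0.547, 0.422, 0.672 and 0.907 CPM at 3 mo and 0.497, 0.291 and 0.488 CPM at 19 mo. V338Y mice had 0 CPM in all 4 mice at 3 mo, and 0, 0, 0.0996 and 0 CPM at 19 mo. The groups did not overlap at either age, on few counts. At 3 mo there were 32 counts in wild-type against 0 in V338Y mice, at least 10.1-fold lower with the same floor of 3 counts over the group, and at 19 mo 18 against 1, a ratio of 21.6 (95% exact interval 3.40 to 898). Gm14086 was called over both ages (adjusted p = 6.18e-04), missed the threshold at 3 mo (0.0894) and was under the count minimum at 19 mo.

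Slc28a2, chosen after its values were seen because it shares sequence with these copies, was at 13.6, 15.3, 18.8 and 17.1 CPM in wild-type and at 11.3, 12.5, 11.3 and 11.4 CPM in V338Y mice at 3 mo. Its log2 fold change was -0.49 (SE 0.106, adjusted p = 0.201) at 3 mo and 0.02 (SE 0.189, adjusted p = 0.988) at 19 mo, where the groups overlapped. With the counts of the 3 genes summed, most of them from Slc28a2, the log2 fold change was -0.27 (SE 0.105, adjusted p = 0.472) at 3 mo, 0.29 (SE 0.194, adjusted p = 0.677) at 19 mo and -0.02 (SE 0.127, adjusted p = 0.972) over both ages. The sum was not called in any of these comparisons, and the ages had opposite signs. Whether reads moved between copies in the counting was not tested.

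**Figure D3:**
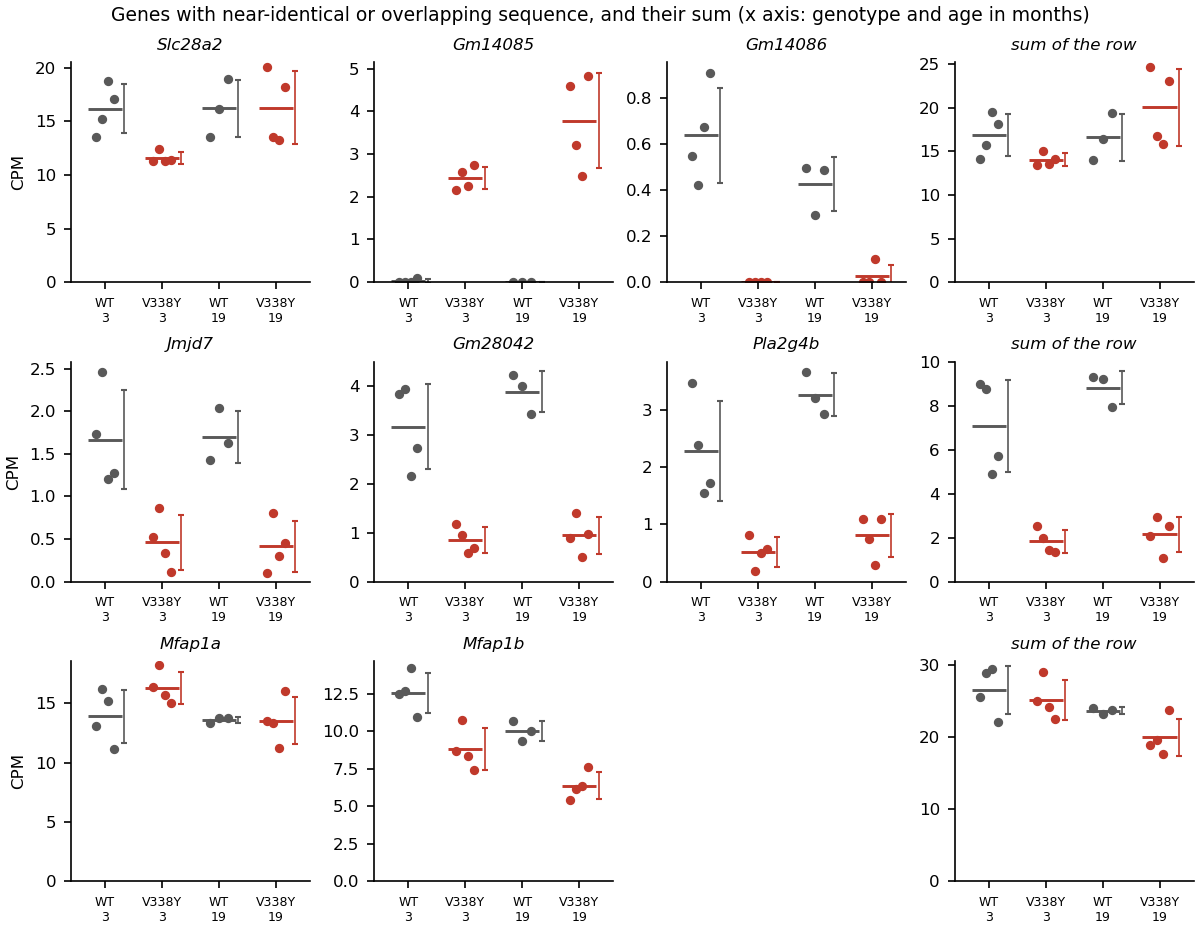
Level in CPM (vertical axis) per mouse for 3 groups of genes that share transcript sequence and for the sum of each group, by genotype and age (horizontal axis). Each point is 1 mouse, the line the mean and the bar the SD. The Jmjd7, Gm28042 and Pla2g4b sum was lower in every V338Y mouse (1.10 to 2.95 CPM) than in any wild-type mouse (4.90 to 9.32 CPM), whereas the sums of the other two groups overlapped between the genotypes at both ages.

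The genes of the second group of calls, at -7.56 to -7.42 Mb, include phospholipases A2 of group 4, cytosolic enzymes that release fatty acids from membrane lipids. Jmjd7, which encodes a Jumonji domain protein that acts as a lysyl hydroxylase, is followed on the same strand by Pla2g4b, and Gm28042 is the annotated read-through transcript of both. The junction that is particular to the read-through transcript is shown because most of the rest of Gm28042 also occurs in its neighbours. The last 30 bases of a Jmjd7 exon (ending at chr2:120031651) are in lower case and the 30 bases of the Pla2g4b exon that follows (beginning at chr2:120034598) in capitals, plus strand, GRCm38.
Gm28042: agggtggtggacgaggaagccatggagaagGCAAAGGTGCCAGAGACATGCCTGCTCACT

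Of the read-length stretches of Gm28042, 90.7% occur in another gene, 68.1% in Pla2g4b and 22.6% in Jmjd7. The split of counts among these genes is therefore uncertain. Part of Gm28042 (12.1%) and of Pla2g4b (10.9%) also lies opposite Sptbn5, and the strand setting of the counting is not given in the sources used here.

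Gm28042 was at 3.83, 3.94, 2.15 and 2.72 CPM in wild-type and at 1.17, 0.958, 0.586 and 0.685 CPM in V338Y mice at 3 mo. The 19 mo mice had 4.22, 4.0 and 3.41 CPM (wild-type) and 0.899, 1.41, 0.498 and 0.967 CPM (V338Y). The genotypes did not overlap at either age. Over both ages Gm28042 fell by 1.93 on the log2 scale (SE 0.210, adjusted p = 2.34e-04), with log2 fold changes of -1.85 (SE 0.297, adjusted p = 0.0746) at 3 mo and -1.99 (SE 0.301, adjusted p = 0.165) at 19 mo. With the mouse number as a block it was called at 19 mo (-2.24, adjusted p = 0.0360).

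Pla2g4b was at 3.46, 2.39, 1.55 and 1.72 CPM in wild-type and at 0.821, 0.192, 0.503 and 0.571 CPM in V338Y mice at 3 mo. The 19 mo values were 3.66, 3.20 and 2.93 CPM against 1.10, 0.736, 0.299 and 1.10 CPM. Again no V338Y mouse reached a wild-type mouse of its age, and Pla2g4b fell by 2.03 over both ages (SE 0.271, adjusted p = 0.00209). Jmjd7 was at 1.21 to 2.46 CPM in wild-type and 0.114 to 0.863 CPM in V338Y mice at 3 mo, and at 1.43 to 2.04 against 0.0999 to 0.803 CPM at 19 mo, without overlap. It fell by 1.88 (SE 0.333, adjusted p = 0.0270), a call that held in 7 of 15 fits without 1 mouse. Jmjd7 passed the count minimum only in the wild-type groups, in which it was higher. With the 3 genes summed the fall was 1.97 over both ages (SE 0.194, adjusted p = 1.05e-04) and 1.92 at 3 mo (SE 0.267, adjusted p = 0.0305), and at 19 mo the log2 fold change was -1.99 (SE 0.266, adjusted p = 0.0922).

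Pla2g4e, a neighbouring phospholipase of the same group that can also move acyl chains onto the amine of phosphatidylethanolamine, went the other way. At 3 mo it was at 20.4, 23.9, 35.3 and 39.5 CPM in wild-type and at 71.8, 56.7, 56.5 and 63.7 CPM in V338Y mice. Wild-type mice of 19 mo had 27.8, 20.4 and 21.9 CPM and V338Y mice of that age 53.8, 67.1, 38.9 and 37.0 CPM. Each V338Y mouse was above each wild-type mouse of its age, and Pla2g4e rose by 1.06 over both ages (SE 0.154, adjusted p = 0.00513). At 19 mo its log2 fold change was 1.09 (SE 0.221, adjusted p = 0.395), and 0.90 with the block, where it was called (adjusted p = 0.0219). It shares almost no stretch with other genes (0.422%).

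Chp1 encodes a calcium-binding protein that partners sodium-proton exchangers, and it is the flanking gene of the muscle list that was called. It was at 88.2, 72.1, 69.5 and 65.7 CPM in wild-type and at 46.4, 43.6, 44.9 and 41.9 CPM in V338Y mice at 3 mo. At 19 mo it was at 55.6, 62.5 and 69.2 CPM in wild-type and at 37.0, 40.0, 43.6 and 43.5 CPM in V338Y mice. The genotypes were apart at both ages. Chp1 fell by 0.75 at 3 mo (SE 0.0955, adjusted p = 0.0202) and by 0.69 over both ages (SE 0.0734, adjusted p = 2.28e-04), and its log2 fold change at 19 mo was -0.59 (SE 0.119, adjusted p = 0.395). The 3 mo call was lost without any 1 of the 4 V338Y mice (adjusted p 0.0579 to 0.104).

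The next annotated call, 1700020I14Rik, is a transcript at -7.99 Mb, beside Chp1 (-8.04 Mb) and on the same strand. It was at 789, 828, 651 and 632 CPM in wild-type and at 507, 552, 528 and 555 CPM in V338Y mice at 3 mo, and at 649, 532 and 692 CPM against 397, 432, 274 and 413 CPM at 19 mo. No values overlapped within an age. It fell by 0.58 over both ages (SE 0.107, adjusted p = 0.0401), and kept the call in 4 of 15 fits without 1 mouse. With the block the adjusted p was 0.0593 over both ages and 0.0496 at 19 mo, where it was 0.488 without the block.

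Bloc1s6 encodes pallidin, a subunit of a complex that sorts cargo to lysosome-related organelles. It was at 14.3, 13.8, 13.6 and 17.4 CPM in wild-type and at 24.7, 22.7, 29.2 and 24.3 CPM in V338Y mice at 3 mo. At 19 mo it was at 13.2, 10.8 and 8.29 CPM in wild-type and at 21.6, 19.2, 15.7 and 16.9 CPM in V338Y mice. All V338Y mice were above all wild-type mice of their age. Bloc1s6 rose by 0.77 at 3 mo (SE 0.106, adjusted p = 0.0284) and by 0.76 over both ages (SE 0.101, adjusted p = 0.00209), with a log2 fold change of 0.78 (SE 0.176, adjusted p = 0.467, and 0.0496 with the block) at 19 mo. Its 3 mo call was lost in 7 of 8 fits without 1 mouse (adjusted p 0.0510 to 0.107).

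Snap23, which encodes a SNARE protein of membrane fusion, was called at 3 mo and not over both ages. It was at 45.3, 53.4, 52.1 and 49.1 CPM in wild-type and at 31.4, 20.1, 21.7 and 24.0 CPM in V338Y mice at 3 mo, without overlap. At 19 mo it was at 56.3, 45.3 and 38.4 CPM in wild-type and at 40.5, 51.2, 37.9 and 37.7 CPM in V338Y mice. The genotypes overlapped at that age. The 3 mo fall was 1.04 (SE 0.128, adjusted p = 0.0192), with an adjusted p of 0.104 without V338Y mouse 3 and of 0.0545 without V338Y mouse 4. Its log2 fold change was -0.14 (SE 0.156, adjusted p = 0.801) at 19 mo.

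Among genes of cell division and DNA copying, Haus2, which encodes a subunit of the augmin complex of the spindle, was called. Wild-type mice had 13.2, 15.8, 14.98 and 14.5 CPM at 3 mo and V338Y mice 8.15, 9.97, 8.29 and 9.70 CPM. The 19 mo values were 14.04, 12.4 and 10.3 CPM against 8.19, 9.57, 7.37 and 9.80 CPM. Both ages were without overlap, and Haus2 fell by 0.71 at 3 mo (SE 0.107, adjusted p = 0.0497) and by 0.61 over both ages (SE 0.0910, adjusted p = 0.00617). In 7 of 8 fits without 1 mouse Haus2 lost the 3 mo call (adjusted p 0.0579 to 0.214). On the other side of Mrps5, Pcna, the sliding clamp of DNA polymerases, had a log2 fold change over both ages of -0.50 (SE 0.0997, adjusted p = 0.0712), and Mcm8, a helicase of recombination, of -1.03 (SE 0.207, adjusted p = 0.0718). Pcna at 3 mo overlapped through wild-type mouse 1 (10.4 CPM, against 15.2 to 15.7 CPM in the other 3 wild-type and 8.90 to 10.6 CPM in V338Y mice), and without that mouse its adjusted p over both ages was 0.0134. Without 19 mo V338Y mouse 5 it was also 0.0134 by edgeR's quasi-likelihood test.

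Mfap1b, a copy of the gene of a spliceosome protein, was at 12.5, 12.7, 14.2 and 11.0 CPM in wild-type and at 8.68, 10.7, 8.38 and 7.42 CPM in V338Y mice at 3 mo. Its 19 mo levels were 10.7, 9.38 and 10.00 CPM against 5.39, 6.16, 6.37 and 7.61 CPM. There was no overlap at either age, and Mfap1b fell by 0.59 over both ages (SE 0.0923, adjusted p = 0.00961), a call lost with the mouse number as a block (adjusted p = 0.0593). Its coding sequence of 1317 bases is identical to that of the neighbouring copy Mfap1a in the reference, and 55.3% of its read-length stretches occur there. The log2 fold change of Mfap1a, chosen after its values were seen, was 0.11 (SE 0.0923, adjusted p = 0.756), and that of the sum of both copies was -0.16 (SE 0.0817, adjusted p = 0.557), so that the call does not hold for the sum.

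Duoxa1 encodes a maturation factor of the dual oxidases, which make hydrogen peroxide. It was at 0.273, 0.492, 0.336 and 0.0907 CPM in wild-type and at 0.586, 1.05, 1.09 and 1.60 CPM in V338Y mice at 3 mo, and at 0.807, 0.655 and 0.650 CPM against 3.30, 2.54, 2.39 and 0.967 CPM at 19 mo. The genotypes did not overlap within an age, at low levels, and only the V338Y groups, in which Duoxa1 was higher, passed the count minimum. Duoxa1 rose by 1.69 over both ages (SE 0.319, adjusted p = 0.0482), kept the call in 2 of 15 fits without 1 mouse and not with the block (adjusted p = 0.137), and overlaps Duoxa2 on the opposite strand over 12.7% of its stretches.

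Fahd2a, which encodes a protein of the fumarylacetoacetate hydrolase family, was the call nearest to Mrps5. It was at 11.6, 11.3, 12.7 and 13.6 CPM in wild-type and at 17.8, 18.5, 21.4 and 19.3 CPM in V338Y mice at 3 mo. At 19 mo it was at 8.14, 8.65 and 7.88 CPM in wild-type and at 11.5, 12.4, 8.46 and 12 CPM in V338Y mice. The groups were apart at 3 mo and overlapped at 19 mo through V338Y mouse 4. Fahd2a rose by 0.64 at 3 mo (SE 0.0920, adjusted p = 0.0377) and by 0.54 over both ages (SE 0.0865, adjusted p = 0.0107). The 3 mo call was lost in each of the 8 fits without 1 mouse (adjusted p 0.0508 to 0.158), and the call over both ages was lost with the block (0.0975). Sord, the sorbitol dehydrogenase of the polyol pathway at -5.35 Mb, had a log2 fold change of 0.41 (SE 0.0834, adjusted p = 0.0813). Of all flanking genes its levels were most alike to those of Fahd2a (Spearman coefficient 0.95 over 15 mice, genotypes and ages together).

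**Figure D4:**
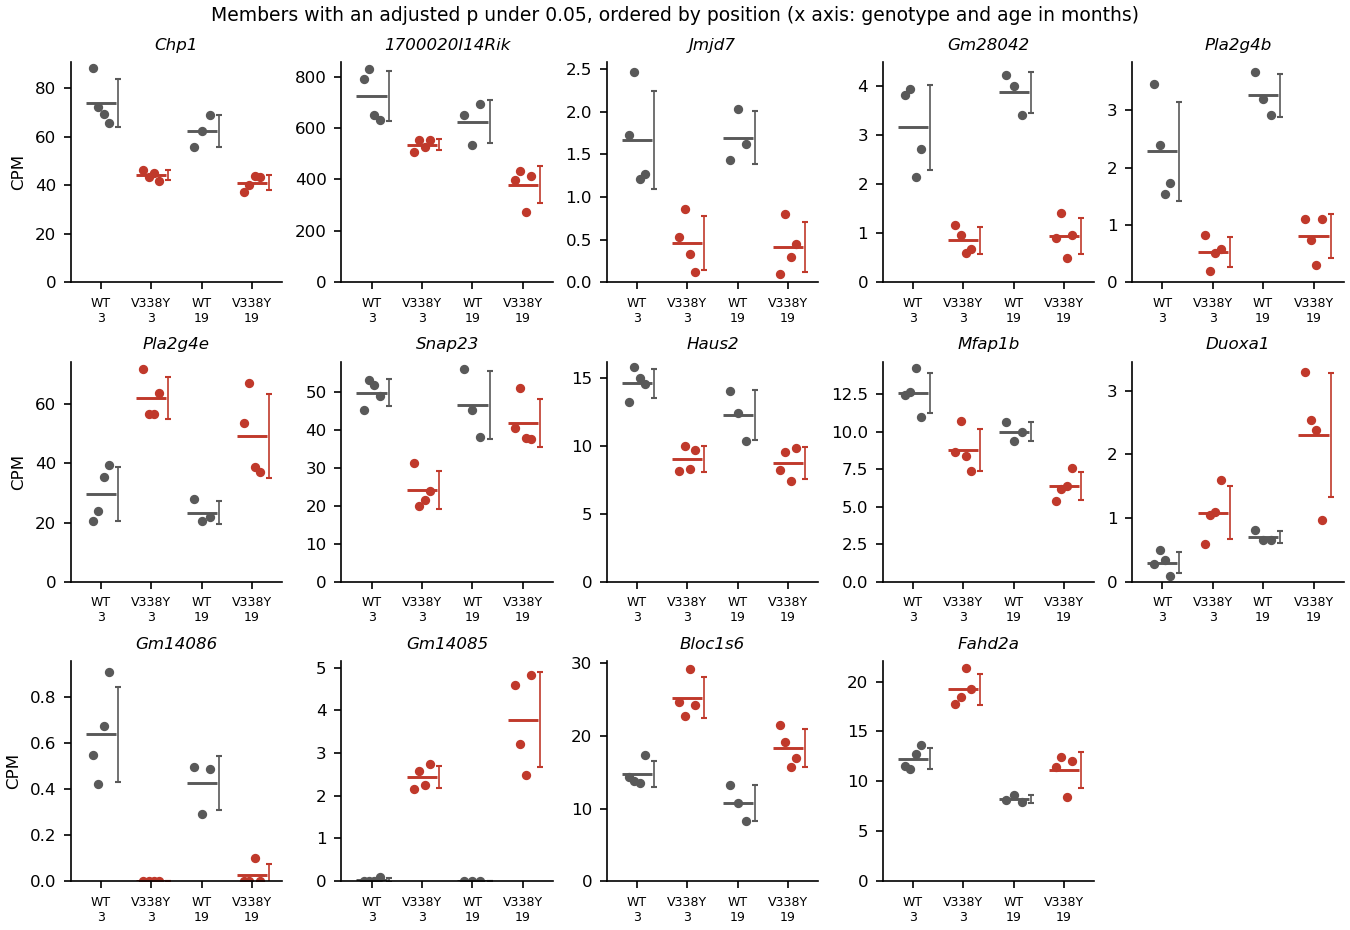
Level in CPM (vertical axis) in each of the 15 mice for the 14 flanking genes called in at least 1 comparison, by genotype and age (horizontal axis). Each point is 1 mouse, the line the mean and the bar the SD. Most panels show the genotypes apart at both ages, while Snap23 (37.7 to 56.3 CPM at 19 mo) and Fahd2a overlap at 19 mo.

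The same measure of likeness was taken for each called gene over the 15 mice, which share genotype and age groups. Levels were not centred within groups, so that genes with like group differences come out alike. Chp1 and Mfap1b were nearest to each other (0.87), and Haus2 (0.86) and 1700020I14Rik (0.85) were also nearest to Mfap1b. Among genes that were higher in V338Y mice, Pla2g4e was nearest to Bloc1s6 (0.87), Bloc1s6 to Sord (0.88), and Duoxa1 to Ccndbp1 (0.89). Gm28042 was nearest to Jmjd7 (0.91) and Pla2g4b to Gm28042 (0.90), which share sequence.

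Among the genes closest to Mrps5, Fahd2a was the only one called. Within 1 Mb there were 25 flanking genes, of which 1 was called over both ages, beside 0.149% of all genes, and 3 had an unadjusted p under 0.05, beside 9.17%. The nearest on the lower side, Zfp661, a zinc finger gene that starts at -0.01 Mb on the opposite strand, was at 6.29 to 7.44 CPM in wild-type and 6.62 to 8.63 CPM in V338Y mice at 3 mo and had a log2 fold change of 0.08 (SE 0.0884, adjusted p = 0.822) over both ages. Adra2b, an adrenergic receptor gene, had 0.03 (SE 0.305, adjusted p = 0.988) at 3 mo, 0.79 (SE 0.304, adjusted p = 0.541) at 19 mo, where the genotypes did not overlap, and 0.37 (SE 0.229, adjusted p = 0.644) over both ages. Over both ages Dusp2, a phosphatase of mitogen-activated kinases, had -0.59 (SE 0.314, adjusted p = 0.588). On the other side Mal and Mall, genes of membrane raft proteins, had 0.10 (SE 0.288) and -0.27 (SE 0.243), and Mtln, which encodes a micropeptide of the inner mitochondrial membrane, 0.02 (SE 0.113). None of these 6 passed the test in any comparison.

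By function, the calls were spread over several groups of genes. The counts of each list stand beside 0.149% of all genes called, and 4.58% higher and 4.59% lower at an unadjusted p under 0.05, while 32.5% of all flanking genes had such a p in either direction. Of 23 flanking genes of mitochondrial and metabolic enzymes, 3 were called over both ages (Pla2g4b, Pla2g4e and Fahd2a), and 5 were higher and 4 lower at an unadjusted p under 0.05. Of 23 genes of membrane traffic and transport, 2 were called (Gm14085 and Bloc1s6), with 6 higher and 1 lower at that p. The 28 genes of RNA processing, translation and ubiquitin held 1 call (Mfap1b), with 1 higher and 5 lower, and this list also holds Snap23, which belongs by its role with membrane traffic. The 15 genes of cell cycle and DNA repair held 1 call (Haus2), with 3 higher and 3 lower. Median log2 fold changes over both ages were 0.03, -0.02, -0.05 and 0.16 in these lists, beside -0.01 over all genes.

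Of the 8 genes on the hand-written list of muscle and contraction, 2 were lower at an unadjusted p under 0.05 (Chp1 and Spg11) and none higher. The median was -0.05. A place on this list does not mean that a gene is particular to muscle. Capn3, a protease of the sarcomere, had a log2 fold change of -0.07 (SE 0.0953, adjusted p = 0.863) over both ages. The 11 genes of matrix and growth factors held 3 lower and no call, with a median of -0.09. These were Fgf7 (-0.55, SE 0.162, adjusted p = 0.412), Adam33 (-0.42, SE 0.167, adjusted p = 0.487) and Bmp2 (-0.34, SE 0.158, adjusted p = 0.534), while Fbn1, the gene of fibrillin-1, had 0.30 (SE 0.175, adjusted p = 0.626). The 13 immune genes held 1 higher (Sirpa, 0.34, SE 0.0789, adjusted p = 0.194) and 1 lower (Mertk, -0.37, SE 0.151, adjusted p = 0.510) and no call, with a median of -0.02. These 3 lists are read against the same shares, 9.17% of all genes and 32.5% of flanking genes in either direction. In no list, 70 flanking genes remained.

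The direction of the genotype difference was compared between the ages. Of 175 tested at both ages, 112 (64.0%) had the same sign, beside 50.2% of all genes, and the 2 comparisons share no mouse. Over the 168 that passed the minimum in all 4 groups the Pearson coefficient of the log2 fold changes was 0.45 and the Spearman coefficient 0.46, across genes, which are not independent replicates. On the side with lower coordinates 68 of 101 (67.3%) had the same sign with coefficients of 0.59 and 0.57, and on the other side 38 of 67 (56.7%) with 0.05 and 0.24. For the rest of chromosome 2 the share was 50.7% of 832 genes with coefficients of -0.12 and 0.02.

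At an unadjusted p under 0.05 in the same direction at both ages there were 23 flanking genes, 11 higher and 12 lower, beside 0.476% of all genes, and 20 of them lay on the side with lower coordinates. Past the minimum in all 4 groups there were 19 of 168, beside 0.423%. In opposite directions there were 0, beside 0.552% of all genes. The genotypes did not overlap in 43 of 180 flanking genes at 3 mo, beside 4.71% of all genes, and in 40 of 186 at 19 mo, beside 9.38%. They did not overlap in the same direction at both ages in 16 of 175, beside 0.245% of all genes, and in 12 of the 168, beside 0.183%. Among all genes with an unadjusted p under 0.05 in the same direction at both ages, chromosome 2 held 30 and each other chromosome 0 to 5.

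**Figure D5:**
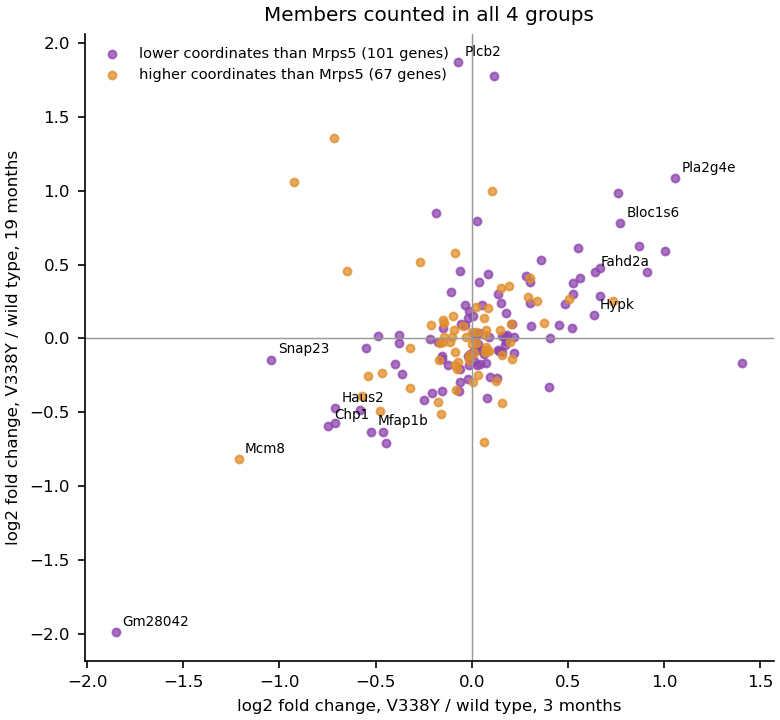
Log2 fold change of V338Y over wild-type at 3 mo (horizontal axis) and at 19 mo (vertical axis) for the 168 flanking genes that passed the count minimum in all 4 groups, 101 on the side of Mrps5 with lower coordinates and 67 on the other. Each point is 1 gene. The genes of the lower side spread along the diagonal, with 68 of 101 in the 2 quadrants of equal sign.

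The difference of the genotype effect between the ages was tested directly. No gene passed in edgeR's quasi-likelihood test, among 191 flanking genes or among all 14128. At an unadjusted p under 0.05 there were 21 flanking genes (11.0%), beside 9.63% of all genes. DESeq2 called 26 genes, 1 of them a flanking gene, and the fit with the mouse number as a block called 117, with 2 flanking genes (Ankef1 and Plcb2). Of the flanking genes Snap23 had the smallest unadjusted p in edgeR's fit (9.32e-04), with a difference of 0.88 (SE 0.214, adjusted p = 0.364) between 19 and 3 mo. Larger differences came with larger errors, as in Plcb2 (1.92, SE 0.703, adjusted p = 0.463) and Gm14085 (2.25, SE 1.39, adjusted p = 0.678).

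Blood and fat cell markers varied among the 19 mo mice. The sum of 5 neutrophil markers (S100a8, S100a9, Ltf, Ngp and Camp) was 2.04 to 4.23 CPM in 19 mo wild-type and 2.30, 24.2, 4.38 and 547 CPM in 19 mo V338Y mice 2 to 5, and at 3 mo it was at most 1.75 CPM, with 3 of the 5 at 0 in all wild-type and 2 in all V338Y mice. Plcb2, a phospholipase C of blood cells, was at 7.55 CPM in V338Y mouse 5 and 1.34 to 2.99 CPM in the other 3 V338Y mice, beside 0.800 to 1.38 CPM in 19 mo wild-type mice. Atp8b4, a lipid flippase gene chosen after its values were seen, was at 13.2 CPM in that mouse and 1.54 to 3.79 CPM in the other 3. The log2 fold changes at 19 mo were 1.87 (SE 0.586, adjusted p = 0.525, and 0.0330 with the block) in Plcb2 and 1.78 (SE 0.763, adjusted p = 0.557, and 0.0496 with the block) in Atp8b4. Both genes were high in the mouse with the most neutrophil marker RNA.

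The sum of 6 macrophage markers was 271 to 308 CPM in wild-type and 333 to 383 CPM in V338Y mice at 19 mo, and that of 5 erythroid markers 97.1 to 148 against 158 to 786 CPM, each with p = 0.0571 in a two-sided exact permutation test, the smallest that 3 against 4 mice can give. The 6 adipocyte markers summed to 129 to 289 and 169 to 827 CPM (exact permutation p = 0.114). At 3 mo the sums of all 7 marker lists overlapped between the genotypes, with exact permutation p from 0.200 to 0.686. The part of these cells in the differences of flanking genes was not tested.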

How the data were processed

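RNA-seq of quadriceps muscle from 15 mice was used, in 4 groups by genotype and age taken from the labels. The authors extracted RNA with Trizol, made libraries with the TruSeq Stranded mRNA kit, sequenced single reads of 126 bases, and deposited 1 expected count per gene and mouse, from RSEM on an Ensembl annotation. The study's methods name GRCm37, while the submitters' processing notes list GRCm38 and GRCh37 beside STAR 2.4.2a, CASAVA 1.8 and bcl2fastq 1.8.4. The deposited values are whole numbers. Gene positions were taken here from the GRCm38 reference by identifier (37693 of 39179 matched), and no coordinate comes from the files.

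Counts were tested with edgeR 4.0.16 in R 4.3.3 (quasi-likelihood F-test, TMM scaling) and adjusted by Benjamini-Hochberg over all genes tested, keeping genes that reached 10 counts in 50% or more of the mice of a compared group. CPM are scaled by TMM. The fits were tested on simulated data. Depth was 8250653 to 18968132 counts per mouse, and intervals cover counting error only. Shared stretches, exons and sequences come from GENCODE transcripts on GRCm38.

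The flanking genes and the gene lists were chosen with earlier results of these data known. Genes named in the text were those called in a comparison, those with an unadjusted p under 0.05 and the same sign at both ages (at most 15 by p), the 4 nearest to Mrps5 on each side, up to 4 per list by p, and for each called gene the one most alike over the 15 mice; some of those selected are covered by counts only, and 1 is not reported here. Cell type markers and gene lists were written by hand.

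Deviations of mice with the same number had positive correlations at 19 mo (0.133, 0.209 and 0.377), and mostly not at 3 mo (0.150, -0.0139, -0.224 and -0.143). The highest value at 19 mo was that of mice of unlike number, wild-type mouse 2 and V338Y mouse 3 (0.443). The other unlike pairs at 19 mo were at -0.374 to -0.0319, after each group was centred on its mean. The pairing comes from these values and not from the labels, so that the block is uncertain. Alternatives were DESeq2 1.42.0, RLE scaling, no count filter, filterByExpr, the 10 most counted genes left out, the mouse number as a block, a fit of all 15 mice, and each mouse left out. After seeing the data, genes past the minimum in all 4 groups and sums of genes that share sequence were added.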

Additional observations from a re-analysis of the deposited data

Results flagged for a closer look

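Among the 3 groups of 4 mice, 17 flanking genes were looked at for a mouse far from the others (51 groups of values). These 17 genes were those called, and those with an unadjusted p under 0.05 and the same sign at both ages (at most 15 by p). There was 1 such mouse. Chance gives about 1 in 20 such groups, so that 1 of 51 is no more than chance gives. Pcna was at 10.4 CPM in 3 mo wild-type mouse 1 and at 15.2 to 15.7 CPM in the other 3 mice of that group (gap over range 0.902, above Dixon's critical value). Without that mouse the adjusted p of Pcna was 0.0377 at 3 mo and 0.0134 over both ages by edgeR's quasi-likelihood test, in place of 0.233 and 0.0712. Leaving out 19 mo V338Y mouse 5, which was not flagged, also gave 0.0134 over both ages in that test.

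The genotype effect differed between the ages at an unadjusted p under 0.05 in 4 of 40 named genes, a share near the 9.63% of all genes. In 2 of them the genotypes were without overlap at 1 age and overlapped at the other. Snap23 had a difference of 0.88 (log2, 19 mo minus 3 mo, SE 0.214, adjusted p = 0.364 by edgeR), being lower in all 4 V338Y mice at 3 mo and overlapping at 19 mo. Hypk, which encodes a chaperone partner of the N-terminal acetyltransferase, had a difference of -0.50 (SE 0.151, adjusted p = 0.397 by edgeR). It was at 26.6 to 35.2 CPM in wild-type and 43.6 to 52.0 CPM in V338Y mice at 3 mo, and at 22.8 to 28.3 and 25.7 to 30.7 CPM at 19 mo. Of Hypk's read-length stretches, 25.5% also occur in the neighbouring gene Serf2, chosen after its values were seen. Serf2 had a difference of -0.34 (SE 0.110, adjusted p = 0.411 by edgeR). None of these genes passed the correction over all genes, and age cannot be told apart from sex in these mice.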

How the results depend on the processing

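The number of flanking genes called over both ages (13) was 25 with DESeq2 and 8 among genes past the minimum in all 4 groups, and 10 to 17 with 1 mouse left out. At 3 mo (6) it was 15 with DESeq2 and 12 without a count filter, and 1 to 5 with 1 mouse left out. At 19 mo (1) it was 7 with DESeq2, 2 without a filter, 9 with the replicate block, 2 in the fit of all 15 mice and 0 among genes past the minimum in all 4 groups, and 0 to 1 with 1 mouse left out. For the difference between the ages (0) it was 1 with DESeq2 and 2 with the replicate block, and 0 with any 1 mouse left out. The cause was not tested. The replicate block gave 10 calls over both ages, without Mfap1b, Fahd2a, 1700020I14Rik and Duoxa1 and with Ccndbp1, and 4 at 3 mo, where the mice share only a number. Over both ages Gm14085, Chp1, Gm28042, Bloc1s6, Pla2g4b, Pla2g4e and Haus2 were called in 21 of 21 settings. Gm14086 was called in the 18 of these 21 settings that gave it a test. It passed the count minimum only in 3 mo wild-type mice, the group in which it was highest. Signs turned for 3 genes with values near 0 when 1 mouse was left out: Snap23 at 19 mo (-0.259 to 0.00907), Mal over both ages (-0.0927 to 0.254) and Mtln over both ages (-0.0380 to 0.0892, and -0.0219 with the replicate block). Gm14085 over both ages was at -0.0244 once summed with Slc28a2 and Gm14086. Of the named genes' values with 1 mouse left out, 763 kept their side of the threshold and direction, 66 lost the call, 7 gained it and 6 turned sign, and under the other alternatives 430, 12, 30 and 2. Genes with under 10 counts per mouse, such as Gm14086, are limited by depth.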
